A study of Mus musculus with 9 samples.

Results

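Numbered zinc finger protein genes are the mouse genes whose symbol is Zfp and a number, with or without a letter after it. Of the 12474 rows that each library lists, 304 carry such a symbol, once Zfp36 is set aside, whose protein binds AU-rich mRNA with fingers of another kind. GENCODE vM21 has 390 protein-coding genes with such a symbol, and those without a row are not analysed here. RNA was sequenced after poly(A) selection from wild-type RAW264.7 cells, a macrophage line from a mouse tumour induced with Abelson murine leukemia virus. Group I received lipopolysaccharide (LPS) at 100 ng/ml, mouse interferon gamma (mIFNγ) at 50 ng/ml and potassium iodide at 20 mM, M1 the same LPS and interferon without iodide, and Mock is the group labelled as mock-treated, each with 3 libraries. Whether replicate libraries stem from separate cultures is not stated, so each p-value measures the spread between libraries, which may be technical. The labels also give no time of treatment.

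A C2H2 zinc finger is a short fold around a zinc ion, and fingers in a row read a stretch of DNA. Many of these proteins also carry a KRAB box, which binds the corepressor Trim28 (KAP1). Trim28 brings in the histone H3 lysine 9 methyltransferase Setdb1 and HP1 proteins (Cbx1, Cbx3, Cbx5), and KRAB zinc finger proteins are best known for silencing endogenous retroviruses this way. Their genes multiplied by local duplication and lie in clusters. Other members have no KRAB box and work as activators, in RNA processing, in mitosis or as ubiquitin ligases.

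Every member had a value above 0 in all 9 libraries, since the tables list no other rows, and every one was tested. Values are FPKM, fragments divided by gene length and by library total. Fragment totals were 18370400 to 21202240 in I, 17765680 to 21867430 in M1 and 17431070 to 25470730 in Mock, and the middle member had 119 to 139 fragments in an I library, 107 to 128 in an M1 library and 218 to 328 in a Mock library. All 8 macrophage markers looked for are listed, with all 5 genes of the activation by LPS and interferon. Of these 5, Nos2 averaged 2070 FPKM in I, 1447 in M1 and 22.2 in Mock, and Tnf 1185, 1049 and 168 FPKM. Il1b, Il6 and Cd40 averaged lower in I than in M1. Il1b had 11.98 FPKM in I, 54.6 in M1 and 0.215 in Mock. In the same order, Il6 had 10.5, 32.3 and 0.2304 FPKM, and Cd40 39.5, 73.7 and 19.5 FPKM. None of the 13 markers of T cells, B cells, fibroblasts and epithelium has a row.

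Numbered Zfp transcripts were lower in both polarized groups than in Mock. Summed over the 304 genes they came to 890, 903.4 and 898.7 FPKM in the I libraries, 811, 792 and 809 FPKM in the M1 libraries and 1303, 1286 and 1289 FPKM in the Mock libraries. The groups did not overlap, I lay above M1, and Mock stood above both. The median member had 1.35 to 1.49 FPKM in I, 1.29 to 1.35 FPKM in M1 and 2.57 to 2.73 FPKM in Mock, while the median over the other rows was 4.89 to 4.97 FPKM in I, 5.13 to 5.22 FPKM in M1 and 6.70 to 6.75 FPKM in Mock. In bulk RNA, fewer cells that carry a transcript and less of it per cell cannot be told apart.

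**Figure D1:**
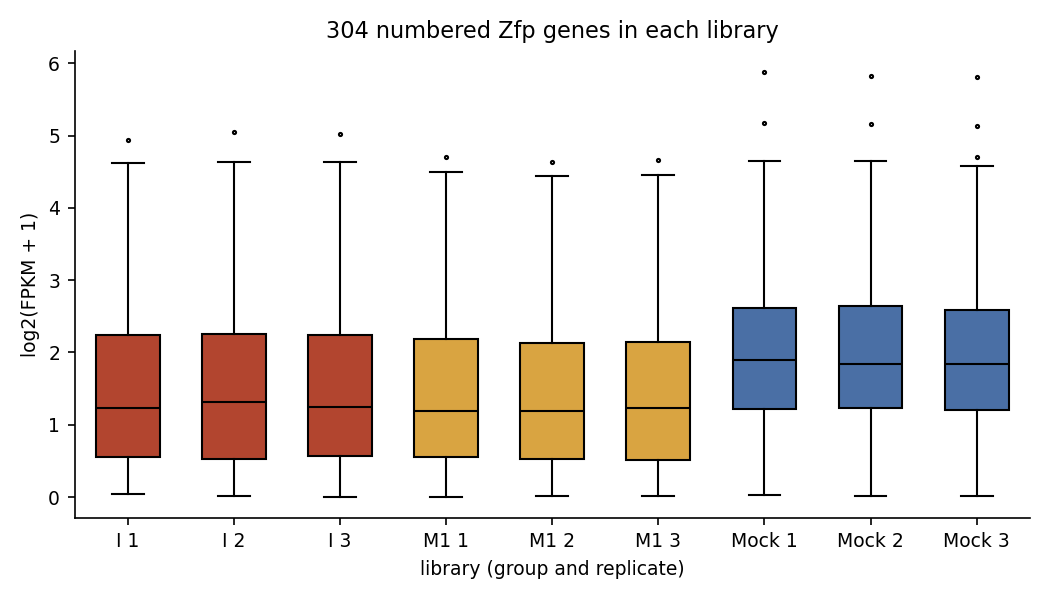
Levels of the 304 numbered Zfp genes in each of the 9 libraries, as log2(FPKM + 1), with the 3 I libraries left, then M1, then Mock. Boxes span the quartiles of the genes with the median as a line, whiskers reach to 1.5 times the box length, and points are genes beyond. The quartiles and medians of the 3 Mock libraries are higher than those of every I and M1 library.

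Between M1 and Mock, 250 members fell and 23 rose at a limma adjusted p under 0.05 (Benjamini-Hochberg over all 12474 rows), and 31 were not called. Over all rows the same test called 52.8% lower and 28.3% higher. The median log2 fold change, on the log2(FPKM + 1) scale, was -0.59 over members and -0.18 over all rows. As a ratio of group means, which the added 1 does not damp, the median member stood at 0.47 of its Mock level and the median row at 0.81. With libraries scaled by the median of ratios (RLE), which puts the median of all rows at 0.00, 208 members were lower and 37 higher, against 5005 and 5046 of all rows. All of those 208 are among the 250, and none of the 250 was called in the other direction.

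Between I and M1, 97 members rose and 28 fell, with 179 not called. Over all rows 23.2% were called higher and 35.7% lower, while more members were higher than lower. With RLE scaling 118 members were higher and 22 lower, and all rows were close to even, with 3566 higher and 3691 lower. The shift was small, with a median log2 fold change of 0.06 over members and -0.04 over all rows, and a median ratio of 1.12 over members and 0.95 over all rows. Both comparisons use the same M1 libraries, so they are not independent of each other. The third comparison sets I against Mock directly, but within the same fit, whose spread also draws on the M1 libraries. It is therefore not independent of them either. Between I and Mock, 234 members fell and 33 rose, against 55.7% of all rows lower and 26.5% higher, with a median ratio of 0.56 over members. With RLE scaling this became 174 lower and 62 higher, against 5039 lower and 5011 higher of all rows, and 5 of the 234 were then called higher.

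Zinc finger genes are expressed at low levels, so they were set beside other genes of similar level. The lowest member averaged 0.0186 FPKM over all libraries, the highest 37.3 FPKM, and 99 averaged under 1 FPKM. Below 1 FPKM, 88 of 99 members were lower in M1 than in Mock, against 988 of 2310 other rows of that level. From 1 to 2 FPKM it was 53 of 62 members against 574 of 999 other rows, and from 2 to 5 FPKM 68 of 80 against 1418 of 2225. The gap narrowed to 27 of 43 members against 1324 of 2274 other rows from 5 to 10 FPKM, and at 10 FPKM or more it was 14 of 20 against 2038 of 4362. In 10 bins of level, with the other rows weighted to the levels of the members, 82.2% of members and 56.3% of the other rows were lower in M1, and the members' median log2 fold change lay below that of the others in 10 of 10 bins. The share called lower was not larger in members in every bin. In bin 6, with 22 members, it was 54.5% of members and 58.3% of other rows. With RLE scaling it was 27.3% and 35.8% in bin 8, with 11 members. Bins 9 and 10, the highest in level, held only 2 and 1 members.

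In the iodide comparison a larger share of members than of other rows was higher from 1 FPKM upward. Higher in I than in M1 were 25 of 62 members from 1 to 2 FPKM, against 170 of 999 other rows, then 36 of 80 against 486 of 2225, 18 of 43 against 608 of 2274 and 11 of 20 against 1217 of 4362 at the 3 levels above. Under 1 FPKM it was 7 of 99 members against 321 of 2310 other rows, and there the share of members was the smaller. Weighted to the members' levels, 31.9% of members and 19.8% of other rows were higher in I, and 9.21% of members and 30.2% of other rows were lower. The members' median lay above that of the others in 10 of 10 bins, by little in the lowest bin (0.015 against 0.0018). For I against Mock, 76.97% of members and 58.5% of other rows at these levels were lower. The members' median was below in 6 of 10 bins and above in 4. The lead in the share lower was widest at low levels. Under 1 FPKM 88.9% of members and 41.6% of other rows were lower, and from 1 to 2 FPKM 80.6% and 62.7%. From 2 to 5 FPKM it was 72.5% and 67.3%, from 5 to 10 FPKM 60.5% and 61.5%, and at 10 FPKM or more 60% and 51.1%.

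**Figure D2:**
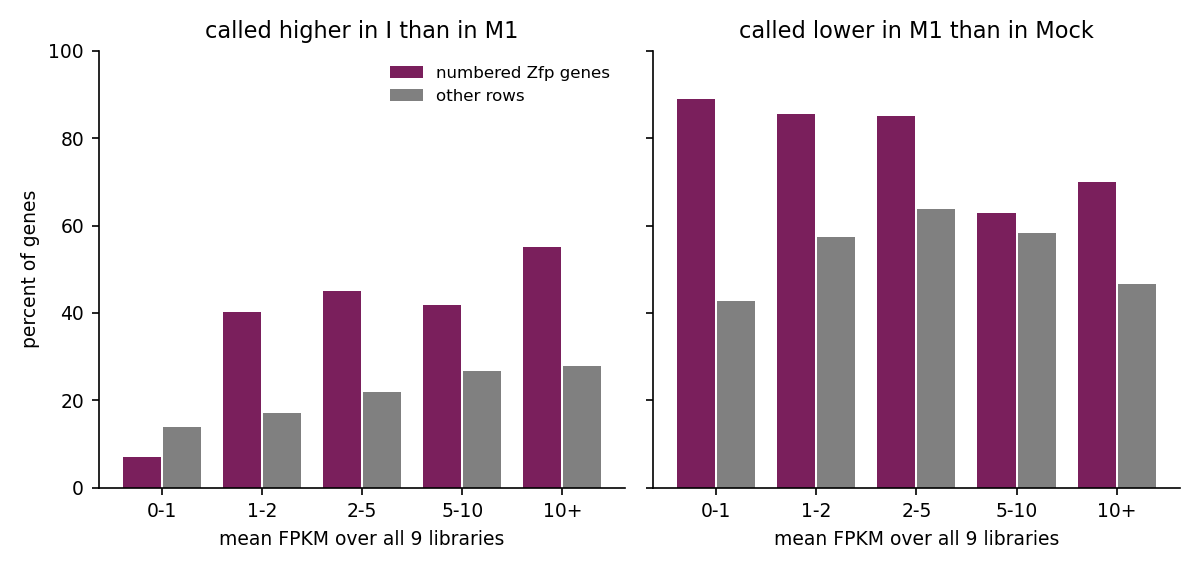
Percent of numbered Zfp genes (purple) and of all other rows (grey) called at a limma adjusted p under 0.05, by mean FPKM over all 9 libraries. Left, genes higher in I than in M1, where members exceed the others from 1 FPKM upward. Right, genes lower in M1 than in Mock, where 88 of 99 members under 1 FPKM are called against 988 of 2310 other rows.

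Members were slightly longer than other genes, with a median summed exon length of 4786 bases, against 4226 for the other rows, and in each of 5 classes of length a larger share of members than of other rows was lower in M1 than in Mock. From 2000 to 3500 bases 71.4% of members and 48.9% of other rows were lower in M1 than in Mock, and above 7000 bases 87.9% of members and 64.9%.

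The proteins sort the members. Coding sequences from GENCODE vM21 were translated for 302 members, of which 296 hold at least 1 C2H2 finger pattern and 185 match a profile of the KRAB A box. Of the KRAB genes, 162 were lower and 8 higher in M1 than in Mock, with a median ratio of 0.39. Of the 117 with no KRAB match, 87 were lower and 15 higher, with a median ratio of 0.65. With RLE scaling 142 KRAB genes were lower and 13 higher, and 65 and 24 of those with no KRAB match. Other rows at the levels of these classes were lower in 55.4% of cases for the KRAB genes and in 57.8% for the rest, so the members without KRAB also lay above their background, by less. With iodide, 56 KRAB genes were higher and 10 lower than in M1, and 40 and 18 of those with no KRAB match. In that comparison, other rows at the levels of the KRAB genes were higher in 18.2% and lower in 27.01% of cases. At the levels of the members with no KRAB match, 22.4% of other rows were higher and 35.3% lower. The difference between the classes was not tested.

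**Figure D3:**
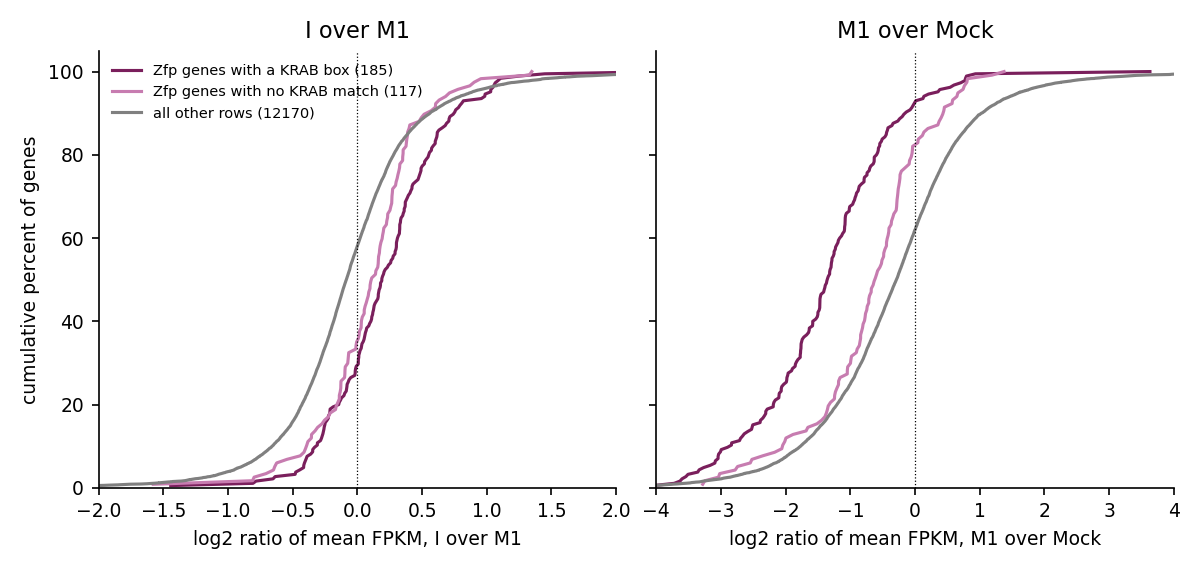
Cumulative percent of genes by log2 ratio of mean FPKM, I over M1 on the left and M1 over Mock on the right, for 185 Zfp genes with a KRAB box (dark purple), 117 with no KRAB match (light purple) and the 12170 other rows (grey). A curve further left holds lower ratios. In M1 over Mock the KRAB curve lies left of both others, with a median ratio of 0.39, and in I over M1 both Zfp curves lie right of the grey curve for most of their length.

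Members were also grouped by number of fingers. Members with 1 to 4 fingers were lower in M1 in 28 of 36 cases with a median ratio of 0.64, those with 5 to 10 in 90 of 110 with 0.49, those with 11 to 15 in 75 of 94 with 0.44 and those with over 15 in 53 of 56 with 0.36. Median levels fell in the same order, at 4.63, 1.99, 1.58 and 1.42 FPKM over all libraries. The ratios were not adjusted for level, and differences between these groups were not tested. In I against M1, 10 members with 1 to 4 fingers were higher and 12 lower (11 and 8 with RLE scaling), while of those with over 15 fingers 21 were higher and 0 lower. KRAB genes have more fingers, with a median of 12, than members with fingers and neither KRAB nor SCAN, with a median of 7, so class and finger number move together. A SCAN box, a dimerization domain, without KRAB was matched in 6 members, of which 4 were lower in M1. Numbered relatives named for other domains can be set beside the 52.8% of all rows lower and 28.3% higher. Of 35 Zbtb genes, which encode BTB-domain zinc finger proteins, 21 were lower and 10 higher in M1 (17 and 12 with RLE scaling), shares near those of all rows, and of 16 Zscan and Zkscan genes 12 were lower and 3 higher (9 and 5 with RLE scaling). In I against M1, 15 Zbtb genes were higher and 5 lower, and 6 and 2 of the Zscan and Zkscan genes. Of all rows, 23.2% were higher and 35.7% lower in that comparison.

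Members were also grouped by position in the genome (coordinates are GRCm38, from GENCODE vM21). Of the 303 members with a position, 80 lie on chromosome 7, 41 on chromosome 17 and 30 on chromosome 13. In 10 runs of at least 6 members, with gaps of at most 500 kb between neighbours, lie 117 members, of which 99 were lower and 6 higher in M1 than in Mock, with a median ratio of 0.39. Of the 35 other rows inside these runs, 19 were lower and 10 higher, with a median ratio of 0.78. Outside the runs 150 of 186 members were lower and 17 higher, with a median ratio of 0.56. The difference between members in and outside runs was not tested, and those in runs have a lower median level, 1.33 FPKM over all libraries against 2.60 FPKM. Neighbours in a run are often close copies of each other, so reads can be shared between them, and the values of single genes there are less certain than those of the run.

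In the run on chromosome 13 (67038596 to 67755228), 17 of 18 members were lower in M1 and 0 higher. Its median ratio of M1 over Mock was 0.26, the lowest of the 10 runs, while its median log2 fold change of -0.74 was not, the lowest being -1.02 in a run of 7 members. There Zfp759 had 0.137, 0.159 and 0.179 FPKM in I, 0.213, 0.182 and 0.104 FPKM in M1 and 1.98, 2.04 and 2.05 FPKM in Mock. Zfp65 had 0.843, 1.103 and 1.08 FPKM in I, 0.659, 0.5996 and 0.537 FPKM in M1 and 3.09, 3.28 and 3.04 FPKM in Mock. The M1 and I libraries of both genes lie below all Mock libraries, Zfp65 was higher in I than in M1 (log2 fold change 0.33 ± 0.06 SE, limma adjusted p = 0.00108), and Zfp759 was not called between I and M1 (limma adjusted p = 0.88). These genes, like the others named for their place in a run, were chosen after their values were seen. Zfp429 was the member of this run not called between M1 and Mock, with 2.496, 2.81 and 2.75 FPKM in I, 2.79, 2.81 and 1.86 FPKM in M1 and 1.81, 2.07 and 2.58 FPKM in Mock.

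The run on chromosome 7 at 29768552 to 30169750 had the largest share of rises of the runs in the iodide comparison. There 8 of 15 members were higher in I than in M1 and 0 lower, while 13 of 15 were lower in M1 than in Mock. Over all members 31.9% were higher in I than in M1 and 9.21% lower, and over all rows 23.2% and 35.7%. Zfp27 had 1.54, 1.86 and 1.895 FPKM in I, 0.964, 0.725 and 0.8395 FPKM in M1 and 2.95, 2.96 and 2.67 FPKM in Mock. Zfp260 had 5.53, 5.47 and 5.099 FPKM in I, 3.59, 3.24 and 3.56 FPKM in M1 and 8.55, 7.97 and 8.06 FPKM in Mock. Zfp382 had 4.35, 4.83 and 5.61 FPKM in I, 3.52, 3.403 and 3.92 FPKM in M1 and 8.01, 7.46 and 7.44 FPKM in Mock. For all 3, every I library lies above every M1 library and below every Mock library. The run on chromosome 17 at 32765496 to 33631779 had the smallest share of rises, with 0 of 13 members higher and 2 lower in I than in M1. Both runs were picked as extremes after the values were seen, and differences between runs were not tested. The 2 lower members of the chromosome 17 run, Zfp811 and Zfp414, were also its 2 members that were higher in M1 than in Mock.

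Letters in the promoters were searched in RefSeq windows (GRCm38.p6) of 250 bases before to 50 bases after each start, which were matched for 260 of the 304 members. The letters ACTACANTT, on either strand, open the element read by Zfp143, a transcription factor that is itself a member. They occur in 44 of 260 members (16.9%), against 253 of 9299 other listed genes (2.72%) and 1.57% of all 32851 windows. A gene counts if any of its windows holds the letters, while the share of windows counts each window singly. They are in 37 of 165 KRAB genes (22.4%) and 7 of 95 members with no KRAB match (7.37%). This core was chosen after the windows had been looked at, and genes that arose by duplication can share promoter letters, so the count is a description. A match is not a bound site. The 13 members that hold it and average at least 2 FPKM are shown with 12 bases on either side, read in the direction of the core, which is in capitals, to show how alike the stretches are. Except in Zfp626 and Zfp444, the letters after the core are ccc.
Zfp146 (chr7:30169848-30169880, plus strand): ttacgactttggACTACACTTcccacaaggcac
Zfp692 (chr11:58307009-58307041, plus strand): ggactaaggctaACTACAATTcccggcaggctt
Zfp180 (chr7:24081865-24081897, minus strand): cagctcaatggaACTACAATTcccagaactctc
Zfp260 (chr7:30095038-30095070, minus strand): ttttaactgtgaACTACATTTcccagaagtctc
Zfp317 (chr9:19621855-19621887, plus strand): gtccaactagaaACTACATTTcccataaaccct
Zfp790 (chr7:29815959-29815991, minus strand): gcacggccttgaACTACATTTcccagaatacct
Zfp1 (chr8:111643408-111643440, minus strand): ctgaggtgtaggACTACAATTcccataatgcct
Zfp84 (chr7:29768520-29768552, minus strand): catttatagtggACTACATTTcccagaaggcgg
Zfp189 (chr4:49521145-49521177, minus strand): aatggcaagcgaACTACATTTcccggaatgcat
Zfp933 (chr4:147848430-147848462, minus strand): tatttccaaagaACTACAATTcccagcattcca
Zfp626 (chr7:27807084-27807116, minus strand): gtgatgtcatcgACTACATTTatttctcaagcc
Zfp444 (chr7:6172269-6172301, minus strand): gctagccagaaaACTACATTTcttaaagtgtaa
Zfp383 (chr7:29908464-29908496, plus strand): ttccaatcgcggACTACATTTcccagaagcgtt

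Of the 44 members with the core, 42 were lower and 0 higher in M1 than in Mock, with a median ratio of 0.35, against 173 lower and 19 higher of the 216 with a window and no core, with a median ratio of 0.50. The 253 other listed genes with the core were lower in 156 cases and higher in 67 (61.7% and 26.5%), with a median ratio of 0.72. The 9046 without it were lower in 4851 cases and higher in 2650 (53.6% and 29.3%), with a median ratio of 0.81. In I against M1, 13 of the 44 were higher and 0 lower, and of the 216 members without the core 69 were higher and 25 lower, so the share higher was similar with and without it. Of the other genes with the core, 43 were higher and 113 lower (17.0% and 44.7%), against 24.2% and 37.4% of the other genes without it. Within the KRAB genes, 35 of 37 with the core and 110 of 128 without it were lower in M1. These differences were not tested, and members with the core have a lower median level, 0.90 FPKM over all libraries against 1.97 FPKM.

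Letters of 5 other elements were searched on both strands. The CCAAT box letters CCAATCAG are in 41 of 260 members, 603 of 9299 other genes and 4.10% of all windows, and the ETS letters CCGGAAG in 59 members, 1955 other genes and 8.86% of all windows. The letters GGANNTTCC of NF-kB, a factor that LPS activates, are in 22 members (8.46%), 5.41% of other genes and 4.26% of all windows. The interferon response element letters GAAANNGAA are in 18 members (6.92%), 8.91% of other genes and 8.56% of all windows. STAT letters, TTCNNNGAA, are in 47 members (18.1%), 7.95% of other genes and 8.30% of all windows, and in 14 of the 47 they overlap the Zfp143 core. Absence of letters from a window says nothing of the factor. Member windows were also poorer in G and C. With the most GC-rich window of each gene, the median was 55.7% in members and 62% in other genes. No share of letters, that of the Zfp143 core included, was adjusted for this.

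The promoter of Zfp146, whose RNA fell most among members above 10 FPKM, is shown whole because its core lies in the middle of the window, on the opposite strand from the gene (chr7:30169692-30169991, minus strand, core in capitals as it reads on the gene's strand). That of Zfp811, whose RNA rose most, holds neither the core nor the CCAAT letters (chr17:32809882-32810181, minus strand).
Zfp146: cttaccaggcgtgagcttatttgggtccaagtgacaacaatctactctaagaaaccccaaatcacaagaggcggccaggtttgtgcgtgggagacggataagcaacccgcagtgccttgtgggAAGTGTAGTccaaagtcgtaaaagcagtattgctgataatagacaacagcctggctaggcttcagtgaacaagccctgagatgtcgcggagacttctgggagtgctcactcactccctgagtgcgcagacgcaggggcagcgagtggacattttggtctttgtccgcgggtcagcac
Zfp811: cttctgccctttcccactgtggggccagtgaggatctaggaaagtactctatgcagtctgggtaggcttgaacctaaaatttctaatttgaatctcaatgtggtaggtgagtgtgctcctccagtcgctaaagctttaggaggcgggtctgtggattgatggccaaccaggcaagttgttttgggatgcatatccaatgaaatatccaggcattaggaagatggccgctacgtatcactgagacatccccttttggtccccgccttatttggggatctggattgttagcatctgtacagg

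Zfp143 RNA was itself higher in the polarized groups. Zfp143 had 15.4, 17.2 and 16.2 FPKM in I, 14.2, 14.1 and 14.3 FPKM in M1 and 8.14, 8.08 and 8.02 FPKM in Mock. The 3 groups are apart, with a log2 fold change of 0.74 ± 0.04 (SE, limma adjusted p = 1.93e-08) for M1 over Mock and 0.19 ± 0.04 (SE, limma adjusted p = 0.00203) for I over M1.

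Zfp811, a KRAB gene of the chromosome 17 run, rose most of all members in M1 over Mock. Zfp811 had 1.22, 1.12 and 0.9797 FPKM in I, 2.88, 3.38 and 2.76 FPKM in M1 and 0.221, 0.242 and 0.265 FPKM in Mock. It was 12.4 times its Mock mean in M1 (log2 fold change 1.69 ± 0.07 SE, limma adjusted p = 2.06e-09) and 0.37 times its M1 mean in I (log2 fold change -0.93 ± 0.07 SE, limma adjusted p = 1.46e-06), which is the largest fall of any member in that comparison. Its I libraries lie between M1 and Mock. Zfp821 had 4.06, 3.91 and 4.71 FPKM in I, 3.001, 3.42 and 3.53 FPKM in M1 and 1.24, 1.36 and 1.23 FPKM in Mock. This gene was higher still with iodide, with a log2 fold change of 0.92 ± 0.07 (SE, limma adjusted p = 4.8e-07) for M1 over Mock and 0.27 ± 0.07 (SE, limma adjusted p = 0.00721) for I over M1. Of the KRAB genes Zfp948 and Zfp954, Zfp948 had 7.26, 6.12 and 7.23 FPKM in I, 7.37, 7.17 and 7.51 FPKM in M1 and 4.13, 4.26 and 4.32 FPKM in Mock. Zfp954 had 9.299, 9.16 and 10.03 FPKM in I, 8.23, 8.12 and 7.78 FPKM in M1 and 5.03, 5.68 and 4.08 FPKM in Mock. The I and M1 libraries of both genes lie above all Mock libraries, with M1 over Mock log2 fold changes of 0.67 ± 0.06 (SE, limma adjusted p = 1.3e-06) and 0.62 ± 0.08 (SE, limma adjusted p = 5.47e-05). Zfp703, a corepressor known from breast cancer whose protein matched no C2H2 pattern here, had 4.34, 4.57 and 4.21 FPKM in I, 4.09, 4.52 and 5.19 FPKM in M1 and 2.69, 2.37 and 2.86 FPKM in Mock, and rose in M1 (log2 fold change 0.62 ± 0.08 SE, limma adjusted p = 2.52e-05).

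The largest falls in M1 took members to a small part of their Mock level. Zfp638 had 2.06, 1.91 and 1.94 FPKM in I, 1.71, 1.52 and 1.79 FPKM in M1 and 9.97, 9.33 and 9.53 FPKM in Mock. Its protein binds nucleic acids and helps to silence unintegrated retroviral DNA with the HUSH complex, and its M1 mean was 0.17 of the Mock mean (log2 fold change -1.99 ± 0.05 SE, limma adjusted p = 1.12e-10). Zfp146 had 6.59, 6.68 and 6.68 FPKM in I, 6.72, 6.28 and 6.23 FPKM in M1 and 24.05, 24.2 and 22.8 FPKM in Mock. Zfp146 encodes a protein made almost wholly of fingers, and the I and M1 libraries lie together far below Mock (log2 fold change M1 over Mock -1.74 ± 0.04 SE, limma adjusted p = 2.7e-11). Zfp518a had 1.25, 1.18 and 0.874 FPKM in I, 0.838, 0.782 and 0.963 FPKM in M1 and 7.05, 7.01 and 6.87 FPKM in Mock, and M1 stood at 0.12 of Mock. The remaining large falls by the naming rule were the KRAB genes Zfp764, Zfp971 and Zfp932, with M1 over Mock ratios of 0.10, 0.20 and 0.14. Zfp764 was also higher in I than in M1 (log2 fold change 0.33 ± 0.06 SE, limma adjusted p = 0.00127), at a low level, with 0.809, 0.825 and 0.5596 FPKM in I, 0.401, 0.346 and 0.382 FPKM in M1 and 3.73, 3.91 and 3.77 FPKM in Mock.

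**Figure D4:**
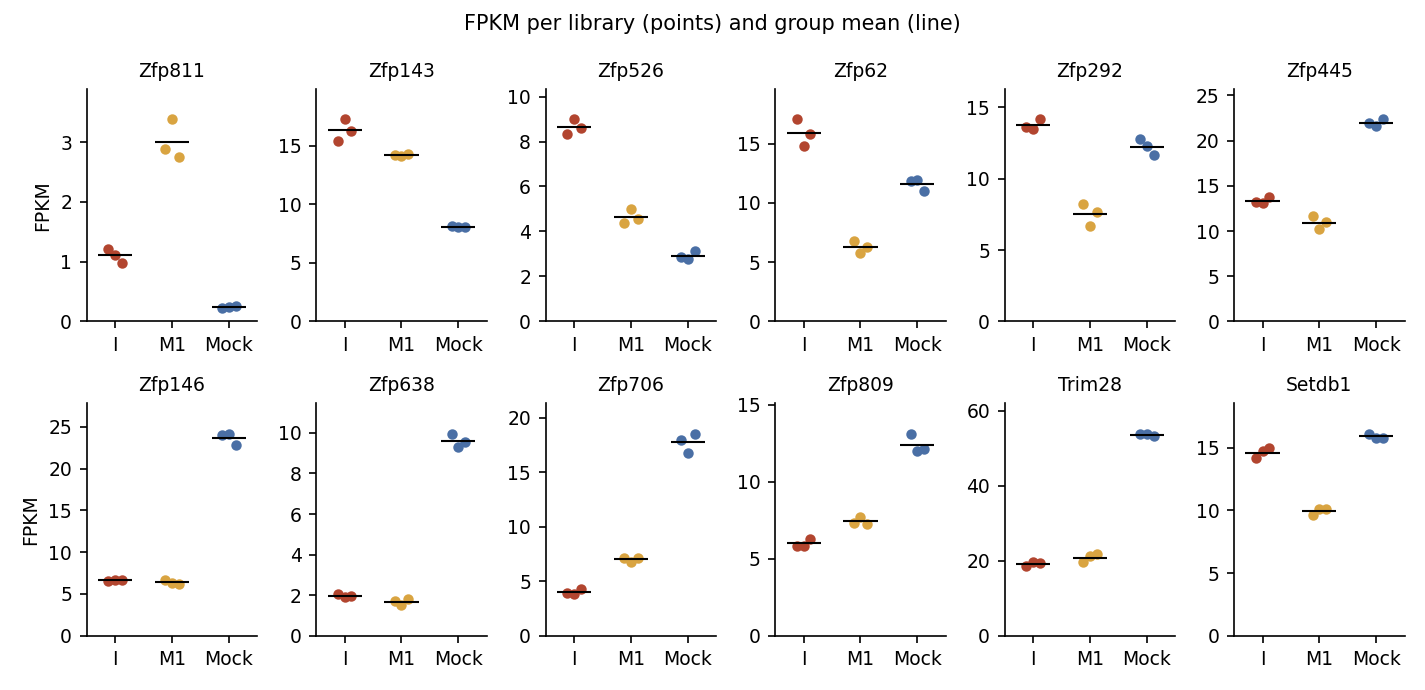
FPKM in each library (points) with the group mean (line) for 10 numbered Zfp genes and the KRAB partners Trim28 and Setdb1, with I left, M1 in the middle and Mock right in each panel, on linear axes that start at 0. Zfp62, Zfp292 and Setdb1 are lowest in M1, Zfp811 is highest in M1, and Zfp526 and Zfp143 are highest in I.

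Some members that were low in M1 stood near or above their Mock level in I. Zfp62 had 17.1, 14.8 and 15.8 FPKM in I, 6.75, 5.74 and 6.24 FPKM in M1 and 11.9, 11.96 and 10.98 FPKM in Mock. Zfp62 was highest in I and lowest in M1, with no overlap of the groups, and had a log2 fold change of 1.22 ± 0.06 (SE, limma adjusted p = 1.49e-07) for I over M1 and -0.80 ± 0.06 (SE, limma adjusted p = 5.59e-07) for M1 over Mock. Zfp292 had 13.6, 13.4 and 14.2 FPKM in I, 8.23, 6.68 and 7.67 FPKM in M1 and 12.8, 12.3 and 11.6 FPKM in Mock. Zfp292, a large protein of which human mutations impair brain development, had a log2 fold change of 0.79 ± 0.06 (SE, limma adjusted p = 3.06e-06) for I over M1. Zfp12 had 3.84, 3.87 and 3.81 FPKM in I, 1.88, 1.93 and 2.01 FPKM in M1 and 3.95, 4.17 and 4.196 FPKM in Mock. For Zfp12, a KRAB gene, I was higher than M1 (log2 fold change 0.72 ± 0.04 SE, limma adjusted p = 5.07e-07), and I against Mock was not called and changes sign with scaling (-0.08 as deposited, 0.23 with RLE and 0.13 with upper-quartile scaling).

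Other members higher in I than in M1 took other courses between M1 and Mock. Zfp281 had 12.97, 15.2 and 14.2 FPKM in I, 8.41, 7.98 and 8.36 FPKM in M1 and 11.1, 10.6 and 9.705 FPKM in Mock. Zfp281 is a repressor of Nanog in embryonic stem cells, and it was higher in I than in M1 (log2 fold change 0.71 ± 0.06 SE, limma adjusted p = 5.03e-06), while its lower level in M1 than in Mock was called as deposited (limma adjusted p = 0.000754) and not with RLE or upper-quartile scaling. Zfp52 had 10.1, 8.84 and 8.79 FPKM in I, 5.89, 5.46 and 5.02 FPKM in M1 and 6.73, 5.68 and 6.37 FPKM in Mock. Zfp526 had 8.34, 8.99 and 8.61 FPKM in I, 4.36, 4.98 and 4.55 FPKM in M1 and 2.88, 2.77 and 3.12 FPKM in Mock. Zfp526 was higher in M1 than in Mock and higher again in I, with log2 fold changes of 0.52 ± 0.06 (SE, limma adjusted p = 7.52e-06) for M1 over Mock and 0.78 ± 0.06 (SE, limma adjusted p = 1.5e-06) for I over M1, while Zfp52 had 0.67 ± 0.07 (SE, limma adjusted p = 2.98e-05) for I over M1. Between M1 and Mock Zfp52 was not called as deposited (log2 fold change -0.17 ± 0.07 SE, limma adjusted p = 0.0552), was called lower with a pseudocount of 0.1, with either FPKM filter, with the replicate block, with limma-voom and without I replicate 1, M1 replicate 1 or Mock replicate 2, and had a positive, uncalled value with RLE scaling (0.10).

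Among the falls with iodide, Zfp706 had 3.95, 3.85 and 4.300 FPKM in I, 7.15, 6.78 and 7.097 FPKM in M1 and 17.99, 16.8 and 18.6 FPKM in Mock. It was low in M1 and lower in I (log2 fold change -0.67 ± 0.05 SE, limma adjusted p = 1.7e-06), and Zfp362 took the same course with 1.36, 1.46 and 1.12 FPKM in I, 1.86, 2.02 and 2.31 FPKM in M1 and 4.502, 4.79 and 4.76 FPKM in Mock (log2 fold change -0.40 ± 0.07 SE, limma adjusted p = 0.000733). Zfp414 had 4.98, 5.07 and 4.08 FPKM in I, 7.48, 7.63 and 6.89 FPKM in M1 and 5.54, 5.52 and 5.299 FPKM in Mock. Zfp637 had 3.07, 3.14 and 3.67 FPKM in I, 4.78, 5.13 and 4.499 FPKM in M1 and 3.38, 3.67 and 3.53 FPKM in Mock. Zfp414 and Zfp637 were higher in M1 than in Mock and lower in I than in M1, with I over M1 log2 fold changes of -0.55 ± 0.07 (SE, limma adjusted p = 7.28e-05) and -0.44 ± 0.06 (SE, limma adjusted p = 0.000238), and their I and Mock levels changed order with RLE scaling. Zfp330 had 8.81, 8.99 and 9.03 FPKM in I, 11.9, 11.99 and 11.6 FPKM in M1 and 11.9, 12.5 and 11.9 FPKM in Mock. Zfp330, a nucleolar protein with cysteine-rich motifs but no C2H2 match, was lower in I than in M1 (log2 fold change -0.37 ± 0.03 SE, limma adjusted p = 7.28e-06) and not called between M1 and Mock, where the sign turned with scaling (-0.03 as deposited, 0.26 with RLE and 0.16 with upper-quartile scaling).

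The members with the highest mean over all libraries were Zfp106, Zfp207, Zfp598, Zfp513 and Zfp445. Zfp106 had 29.8, 32.1 and 31.5 FPKM in I, 25.1, 23.8 and 24.2 FPKM in M1 and 57.9, 55.5 and 55.4 FPKM in Mock. Zfp106 is an RNA-binding protein needed by motor neurons and muscle, and its M1 mean was 0.43 of Mock. Zfp207 had 23.6, 23.9 and 23.9 FPKM in I, 21.6, 20.8 and 20.9 FPKM in M1 and 35.00, 34.8 and 34.1 FPKM in Mock. Zfp207 (BuGZ) loads the checkpoint protein Bub3 in mitosis, and its level was 0.61 of Mock in M1, with I slightly above M1 (log2 fold change 0.16 ± 0.02 SE, limma adjusted p = 0.000267). Zfp513 had 20.2, 20.1 and 21.9 FPKM in I, 16.2, 17.1 and 18.2 FPKM in M1 and 12.7, 11.7 and 13.2 FPKM in Mock. It was the highest member to rise in M1 (log2 fold change 0.43 ± 0.06 SE, limma adjusted p = 3.54e-05) and was higher again in I (0.26 ± 0.06 SE, limma adjusted p = 0.0025). Zfp598, the ubiquitin ligase that senses collided ribosomes, had 16.3, 16.7 and 17.2 FPKM in I, 17.3, 18.6 and 19.4 FPKM in M1 and 22.04, 22.3 and 22.9 FPKM in Mock, and its M1 over Mock log2 fold change of -0.27 ± 0.04 (SE, limma adjusted p = 0.000127) became 0.03 with RLE scaling.

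A few KRAB genes with a known target are given as examples, picked for that target and not as a list. Zfp809 had 5.82, 5.85 and 6.29 FPKM in I, 7.32, 7.68 and 7.25 FPKM in M1 and 13.1, 11.98 and 12.1 FPKM in Mock. Zfp809 recruits Trim28 to the primer binding site of murine leukemia viruses, and it fell in M1 (log2 fold change -0.67 ± 0.05 SE, limma adjusted p = 1.95e-07) and further in I (-0.27 ± 0.05 SE, limma adjusted p = 0.000631). Zfp445 had 13.2, 13.1 and 13.8 FPKM in I, 11.6, 10.2 and 10.96 FPKM in M1 and 21.99, 21.6 and 22.4 FPKM in Mock. Zfp445, which protects imprinted regions, fell in M1 (-0.95 ± 0.04 SE, limma adjusted p = 7.54e-09) and was higher in I than in M1 (0.27 ± 0.04 SE, limma adjusted p = 0.000437). Zfp568, a repressor of a placental Igf2 transcript, had 2.48, 2.58 and 2.47 FPKM in I, 2.04, 1.87 and 2.05 FPKM in M1 and 4.19, 4.49 and 4.41 FPKM in Mock, with -0.84 ± 0.05 (SE, limma adjusted p = 3.93e-08) for M1 over Mock and 0.23 ± 0.05 (SE, limma adjusted p = 0.00195) for I over M1. Zfp932, a repressor of endogenous retroviruses, had 0.476, 0.366 and 0.413 FPKM in I, 0.491, 0.573 and 0.602 FPKM in M1 and 4.14, 4.296 and 3.45 FPKM in Mock, with M1 over Mock at 0.14. Zfp746 (PARIS), which represses the gene of the coactivator PGC-1α, had 0.962, 1.16 and 1.12 FPKM in I, 1.42, 1.35 and 1.498 FPKM in M1 and 3.41, 3.603 and 3.17 FPKM in Mock, lower in M1 than in Mock (-0.86 ± 0.06 SE, limma adjusted p = 1.67e-07) and lower in I than in M1 (-0.22 ± 0.06 SE, limma adjusted p = 0.00809).

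The chromatin partners of KRAB proteins were counted from a list. From a list of 28 corepressor and heterochromatin symbols, 27 have a row, and 26 of them were lower and 0 higher in M1 than in Mock, with Ehmt2 not called (limma adjusted p = 0.0845), beside 52.8% of all rows lower and 28.3% higher. With RLE scaling 24 were lower and 2 higher. Trim28 had 18.6, 19.6 and 19.3 FPKM in I, 19.7, 21.1 and 21.7 FPKM in M1 and 53.9, 53.9 and 53.2 FPKM in Mock. The Mock libraries stood far above both polarized groups (M1 over Mock log2 fold change -1.32 ± 0.04 SE, limma adjusted p = 1.12e-10). Atrx, a chromatin remodeller, had M1 over Mock at 0.25, the maintenance methylation genes Uhrf1 and Dnmt1 at 0.28 and 0.45, and the HP1 gene Cbx5 at 0.25. Trim28 and these partners were named for the smallest limma p-values of the list. The median ratio over the list was 0.48. Others fell less, with the HP1 gene Cbx1 at 0.59, Hdac1 at 0.73, Mta1 at 0.74, Wiz at 0.87 and Mta2 at 0.95. Between I and M1 the list was split, with 8 higher and 12 lower (10 and 9 with RLE scaling), shares not far from the 23.2% and 35.7% of all rows. Setdb1 had 14.2, 14.7 and 14.96 FPKM in I, 9.599, 10.1 and 10.1 FPKM in M1 and 16.1, 15.8 and 15.8 FPKM in Mock. Setdb1 was the partner with the largest rise in I over M1 (log2 fold change 0.51 ± 0.03 SE, limma adjusted p = 7.07e-07), chosen for this after its values were seen.

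Members with roles away from KRAB repression were mixed. Zfp410, an activator of the chromatin remodeller gene Chd4, had 3.01, 2.605 and 2.62 FPKM in I, 2.12, 2.04 and 2.17 FPKM in M1 and 2.96, 2.76 and 3.13 FPKM in Mock. It was lower in M1 than in Mock (log2 fold change -0.34 ± 0.06 SE, limma adjusted p = 0.000287), a call not made with RLE scaling, and higher in I than in M1 (0.27 ± 0.06 SE, limma adjusted p = 0.00286), and Chd4 had 49.6, 51.7 and 52.2 FPKM in I, 43.6, 43.8 and 44.4 FPKM in M1 and 75.7, 71.8 and 75.6 FPKM in Mock. Zfp217, a partner of histone demethylase complexes, had 8.31, 8.93 and 9.54 FPKM in I, 5.64, 5.69 and 6.28 FPKM in M1 and 13.5, 12.5 and 13.3 FPKM in Mock and was higher in I than in M1 (0.53 ± 0.06 SE, limma adjusted p = 2.25e-05). Zfp644, a partner of the H3 lysine 9 methyltransferases Ehmt1 and Ehmt2, had 0.913, 0.906 and 0.988 FPKM in I, 0.966, 0.774 and 0.808 FPKM in M1 and 3.49, 3.39 and 3.27 FPKM in Mock, with M1 over Mock at 0.25. Zfp335, a factor needed for T cell maturation and neural progenitors, had 15.2, 15.8 and 15.9 FPKM in I, 12.3, 13.6 and 13.4 FPKM in M1 and 8.78, 7.89 and 8.45 FPKM in Mock, so it was higher in M1 than in Mock (0.59 ± 0.05 SE, limma adjusted p = 6.86e-07) and in I than in M1 (0.24 ± 0.05 SE, limma adjusted p = 0.00172).

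Zfp318, needed for IgD expression in B cells, and Zfp830, a genome maintenance factor, were lower in M1 than in Mock and higher in I than in M1, with I over M1 log2 fold changes of 0.31 ± 0.05 (SE, limma adjusted p = 0.00024) and 0.26 ± 0.05 (SE, limma adjusted p = 0.00132). Zfp148 (ZBP-89), a GC-rich promoter binder, Zfp326, a factor in splicing by elongating polymerase, and Zfp451, a SUMO ligase, were at 0.61, 0.50 and 0.48 of Mock in M1. Zfp385a, a partner of p53, was lower in M1 than in Mock (-0.31 ± 0.04 SE, limma adjusted p = 8.13e-05), a call not made with RLE scaling, and lower in I than in M1 (-0.33 ± 0.04 SE, limma adjusted p = 0.000119). Zfp384 was lower in M1 than in Mock (-0.46 ± 0.05 SE, limma adjusted p = 8.7e-06) and higher in I than in M1 (0.20 ± 0.05 SE, limma adjusted p = 0.00559). Zfp580 was higher in M1 than in Mock, with 5.47, 4.59 and 5.000 FPKM in I, 5.03, 7.09 and 6.09 FPKM in M1 and 4.21, 5.06 and 4.49 FPKM in Mock, with M1 replicate 1 below Mock replicate 2 (log2 fold change 0.33 ± 0.10 SE, limma adjusted p = 0.0124).

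The small falls in M1 of 3 further members depended on scaling. Zfp91, a ubiquitin ligase of the noncanonical NF-kB pathway, had 12.9, 14.2 and 13.03 FPKM in I, 13.2, 12.5 and 12.4 FPKM in M1 and 15.3, 15.7 and 15.3 FPKM in Mock, and its M1 over Mock log2 fold change of -0.27 ± 0.04 (SE, limma adjusted p = 0.000101) was 0.03 with RLE scaling. Zfp609, a partner of the cohesin loader, and Zfp622, a ribosome assembly factor, had -0.23 ± 0.05 (SE, limma adjusted p = 0.000721) and -0.22 ± 0.03 (SE, limma adjusted p = 8.86e-05), and with RLE scaling 0.04 and 0.07. Zfp622 was also lower in I than in M1 (-0.19 ± 0.03 SE, limma adjusted p = 0.000563). Of 31 members with a role looked for, Zfp395, Zfp57 and Zfp708 have no row and are not analysed here.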

How the data were processed

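Poly(A) RNA of 9 libraries was sequenced, 3 each of I, M1 and Mock. The deposited values are FPKM, a unit read from the values since no header names it. Per the submitters' processing notes, the authors used fastp 0.20.1, HISAT2 2.2.1 and featureCounts 2.0.1 with the GRCm38 genome. The sources used here name no strand use, gene annotation or tool setting. Multiplied by summed GENCODE vM21 exon length, 98.4% to 98.6% of FPKM values were whole fragments within 0.05, which gave the library totals, with no other scaling seen. Fragments were whole in all libraries for 298 of the 304 members.

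Rows whose symbol matches the Zfp and number rule were taken, and the members and lists were chosen with earlier results of these data known. limma 3.58.1 (R 4.3.3) was fitted on log2(FPKM + 1) to all 12474 rows and 9 libraries with a term per group, a variance trend and no filter on low values, so that each listed member was tested, and genes were called at an adjusted p under 0.05. Log2 fold changes on this scale understate the change of low genes, and ratios are of group mean FPKM. The fit was also run on simulated data, with changes planted between I and M1 only in genes averaging at least 1 FPKM. That run says nothing of changes in lower genes or of library scaling. The planned design took domains from RefSeq proteins, which are not used here. GENCODE coding sequences were translated instead, with KRAB and SCAN profiles built from the members themselves (pyhmmer 0.12.3) and a pattern for fingers. Genes named are the 6 largest rises and 6 largest falls in M1 over Mock and in I over M1 (called, at least 2 FPKM in the higher group, groups apart), the 5 highest members, and members with a known role. Trim28, Atrx, Uhrf1, Dnmt1 and Cbx5 were named as the KRAB partners with the smallest limma p-values. Alternatives were RLE and upper-quartile scaling, a pseudocount of 0.1, filters of 0.5 and 1 FPKM in 3 libraries, a replicate block, limma-voom on recovered fragments, other level bins, and each library left out.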

Additional observations from a re-analysis of the deposited data

How the results depend on the processing

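The balance of members lower in M1 than in Mock and higher in I than in M1 kept its direction under each alternative run. Leaving out each library in turn gave 245 to 250 lower and 23 to 24 higher in M1 over Mock, 82 to 98 higher and 24 to 29 lower in I over M1, and 225 to 235 lower and 31 to 35 higher in I over Mock. A filter of 1 FPKM, which tests fewer members, gave 204 lower in M1 over Mock and 186 lower in I over Mock, and RLE scaling 208 and 174. Members higher in M1 over Mock came to 37 with RLE scaling, and members higher in I over Mock to 62 with RLE and 50 with upper-quartile scaling. In I over Mock the lead of members over other rows of similar level in the share lower was 18.5 percentage points, and 11.8 points with RLE scaling. As deposited, this lead was widest under 1 FPKM and absent from 5 to 10 FPKM. The cause was not tested.

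The members' median log2 fold change minus that of all rows was -0.42 in M1 over Mock. It was -0.39 with RLE scaling, -0.67 with a pseudocount of 0.1, -0.39 with a filter of 0.5 FPKM and -0.78 with limma-voom on fragments, and -0.42 to -0.39 with a library left out. In I over M1 it was 0.10, and 0.21 with the pseudocount of 0.1, 0.13 and 0.16 with filters of 0.5 and 1 FPKM and 0.24 with limma-voom. In I over Mock it was -0.26, and -0.40 with the pseudocount of 0.1 and -0.48 with limma-voom. A smaller added value damps low genes less, by construction.

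Some values of the genes named changed sign with scaling. Not all of these were called as deposited: Zfp330 in M1 over Mock and Zfp12 in I over Mock were not. In M1 over Mock the log2 fold changes became positive with RLE scaling for Zfp330 (0.26, and 0.16 with upper-quartile scaling), Zfp598 (0.031), Zfp91 (0.028), Zfp609 (0.044) and Zfp622 (0.068). In I over Mock they became positive for Zfp12 (0.23 and 0.13 with upper-quartile scaling), Zfp414 (0.14 and 0.037), Zfp637 (0.21), Zfp91 (0.16 and 0.047), Zfp384 (0.085), Zfp410 (0.21) and Zfp609 (0.26 and 0.15). Zfp52, not called in M1 over Mock, went to 0.10 with RLE and 0.010 with upper-quartile scaling. The RefSeq domain check was not run, and with members limited to those with a finger match in GENCODE proteins, added after seeing the data, 246 were lower and 21 higher in M1 over Mock.

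Same-numbered libraries of different groups deviated with correlations of -0.14 to 0.06, and differently numbered ones with -0.10 to 0.14. No pairing by number was seen, though a weak one could go unseen. A fit with the replicate block called 250 members lower and 23 higher in M1 over Mock, 92 higher and 27 lower in I over M1, and 228 lower and 33 higher in I over Mock. Depth limits members under 1 FPKM most.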
